A study of Mus musculus with 52 samples.

Results

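The 9 digestive enzyme genes of the exocrine pancreas, Ctrb1, Pnlip, Cpa1, Cela2a, Cela3b, Clps, Cel, Pnliprp1 and Rnase1, were followed in mouse liver RNA on 52 oligonucleotide arrays. The genes were chosen by symbol with results of these arrays already known, and every probe set whose only annotated symbol was one of the 9 was taken. No probe set carried the symbol Pnlip alone, so 8 of the 9 genes were measured, by 12 of 22626 probe sets. After each array was scaled to its median, a floor was set at a scaled signal of 32.5, the 30th percentile of all values, and signals under it were treated as equal to it. A probe set was tested when it lay above the floor on at least 4 arrays. This held for 18349 probe sets in all and for 8 of the 12 pancreatic ones, which covered 6 genes.

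Male B6C3F1 mice, 9 weeks old, received a single intraperitoneal dose and their livers were taken at 4 h, 20 h, 14 days or 28 days. Each array held pooled liver RNA of 5 mice, and each chemical had 1 array per time. The genotoxic hepatocarcinogens were ethylnitrosourea (ENU, 150 mg/kg), dimethylnitrosamine (DMN, 5 mg/kg), dipropylnitrosamine (DPN, 250 mg/kg), DBP (dibenzo[a,l]pyrene) at 6 mg/kg, DMBA (7,12-dimethylbenzanthracene) at 20 mg/kg and AAT (o-aminoazotoluene) at 300 mg/kg. The class labelled non-genotoxic held phenobarbital (PB, 30 mg/kg), a hepatocarcinogen, and ethanol (EtOH, 1000 mg/kg), which the study describes as no hepatocarcinogen in mice. ENU, DMN and DPN each had a saline control of their own at every time, EtOH and PB shared a further saline control, and AAT, DMBA and DBP shared an olive oil control. There were thus 32 treated arrays and 20 vehicle control arrays, 16 with saline and 4 with olive oil. Pooling of 5 mice leaves no spread between animals, so the tests below rest on the spread between arrays.

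Pancreatic acinar cells make and secrete the enzymes that digest food in the gut. Most are stored as inactive precursors and are activated in the intestine, where trypsin cuts them. The pancreas lies next to the liver and the duodenum, and its enzyme transcripts are among the most abundant messages of any tissue, and acinar cells are the main source of most of them. The question put to these genes was whether they rose and fell together from array to array, vehicle controls included, or followed a chemical. The 9 genes fall into 3 roles. Ctrb1 (chymotrypsinogen B), Cela2a and Cela3b (pancreatic elastases) and Cpa1 (carboxypeptidase A) digest proteins. Pnlip (pancreatic lipase), Clps (colipase, its cofactor), Cel (bile salt-stimulated lipase) and Pnliprp1 (a lipase-related protein) belong to fat digestion. Rnase1 is the secreted pancreatic ribonuclease, which is also made by endothelial cells in other tissues.

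Acinar expression of many digestive enzyme genes depends on the PTF1 complex, which contains Ptf1a and Rbpjl and binds an E-box next to a TC-box. The 250 bases before the annotated start are shown for the 3 proteases with a tested probe set and for Rnase1, as the RefSeq promoter set of build GRCm38.p6 gives them. An entry was found for 8 of the 9 genes. Capitals mark the E-box, CANNTG, which reads the same on both strands, and the TC-box, TTTCCC or GGGAAA on the other strand. The capitals of different motifs did not overlap.
Ctrb1 (chr8:111691011-111691260, minus strand): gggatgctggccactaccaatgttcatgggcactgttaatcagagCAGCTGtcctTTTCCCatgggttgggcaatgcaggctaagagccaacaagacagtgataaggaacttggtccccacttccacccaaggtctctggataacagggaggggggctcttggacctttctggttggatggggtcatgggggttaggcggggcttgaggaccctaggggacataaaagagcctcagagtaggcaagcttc
Cela2a (chr4:141826006-141826255, minus strand): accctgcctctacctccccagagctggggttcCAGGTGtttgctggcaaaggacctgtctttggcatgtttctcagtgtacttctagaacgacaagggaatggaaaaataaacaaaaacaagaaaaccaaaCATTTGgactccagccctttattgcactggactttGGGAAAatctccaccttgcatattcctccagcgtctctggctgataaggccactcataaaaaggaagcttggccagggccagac
Cela3b (chr4:137430521-137430770, minus strand): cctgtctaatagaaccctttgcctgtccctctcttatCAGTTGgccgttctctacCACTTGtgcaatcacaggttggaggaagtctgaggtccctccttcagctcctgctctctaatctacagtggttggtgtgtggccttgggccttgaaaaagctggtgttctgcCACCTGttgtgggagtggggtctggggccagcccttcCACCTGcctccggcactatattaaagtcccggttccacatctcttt
Rnase1 (chr14:51146768-51147017, minus strand): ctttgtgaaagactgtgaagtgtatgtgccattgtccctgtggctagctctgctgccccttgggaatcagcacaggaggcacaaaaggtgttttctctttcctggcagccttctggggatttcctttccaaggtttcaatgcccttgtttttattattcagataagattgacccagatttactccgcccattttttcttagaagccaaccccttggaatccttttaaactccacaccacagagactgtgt
The Ctrb1 window held 1 E-box and, a few bases nearer to the start, a TC-box 195 bases before it. The Cela2a window held 2 E-boxes and 1 TC-box, and that of Cela3b held 4 E-boxes and no TC-box, while neither motif was in the Rnase1 window. Over the 8 genes, 6 windows held an E-box and 4 held both motifs, counted at any distance from each other. Among 32851 promoters of this length, 66.2% held an E-box, 21.9% a TC-box and 14.2% both. A match of letters is a description and no evidence of binding.

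The liver label was checked first. All 14 hepatocyte markers with a probe set, among them Alb, Ttr and Cps1, were above the floor on every array. The array medians before scaling differed by more than 10-fold, from 17.9 in PB at 28 days to 205 in the DMN control of 14 days. The ethanol array of 20 h held the highest value of 14.6% of all probe sets, and its log2 ratio of the 3' to the 5' Gapdh control probe set, which rises as RNA degrades, was 3.13, against -0.51 to 0.34 on the other 51 arrays. Cyp2b10, a cytochrome P450 gene that phenobarbital is known to induce, read 2858 in the shared saline control of 20 h and 303 in PB at 20 h, against 73.1 to 153 in the other controls of that time, which goes against their labels. That control, EtOH and PB of 20 h were therefore left out in an alternative, under which the calls of pancreatic probe sets for DPN were kept. In these bulk samples fewer cells of a type and less RNA per cell cannot be told apart.

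The pancreatic signals ranged from under the floor to several times it. Cpa1 (1428062_at), Pnliprp1 (1415777_at) and a second Clps probe set (1438612_a_at) were under it on all 52 arrays, and Cela3b 1415883_a_at rose above it on 1, the ENU control of 20 h, at 38.1. Cela3b 1415884_at, Cel and Rnase1 were above it on all 52 arrays, Ctrb1 on 49, Clps 1415805_at on 38 and Cela2a on 33. The other Cela3b probe sets tested, 1437326_x_at and 1435611_x_at, were above it on 15 and 6 arrays. Among the 8 tested, Ctrb1 varied most, with an SD of 0.74 on the floored log2 scale over 52 arrays, and Cela2a followed with 0.41.

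**Figure D1:**
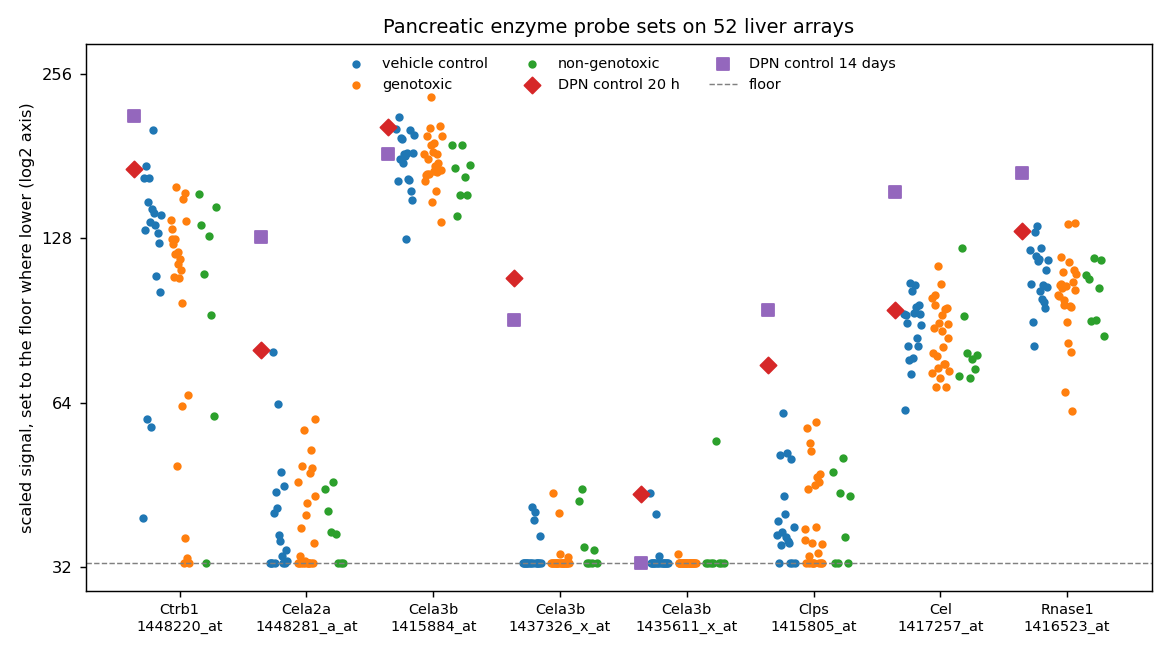
Scaled signal (log2 axis, values under the floor drawn at it) of the 8 tested probe sets on all 52 arrays, 1 point per array, coloured by class, with the DPN control arrays of 20 h and 14 days set apart. For Cela2a, Clps and Cela3b 1437326_x_at these 2 vehicle control arrays held the 2 highest points.

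The highest signals of most of these probe sets were found in 2 vehicle controls that had received saline only. Cela2a reached 129 in the DPN control of 14 days and 79.8 in that of 20 h, against a median of 36.2 over 52 arrays. The DMN control of 4 h followed closely at 79.3. For Clps 1415805_at the signals were 94.4 and 74.9, and the next array, the ENU control of 14 days, gave 61.3. Cela3b 1437326_x_at stood further apart, at 108 in the DPN control of 20 h and 90.8 in that of 14 days, with 44.4 on the next array, EtOH at 20 h with its high Gapdh ratio. Cel and Rnase1 had their maximum in the DPN control of 14 days, at 155 and 168, but in the DPN control of 20 h Cel was 94.6 and Rnase1 was 132, within the range of the other arrays. Ctrb1 was also highest there, at 214, followed by the olive oil control of 14 days at 202. Cela3b 1415884_at, the brightest of that gene's probe sets, did not share the pattern. It peaked at 232 in DMBA at 14 days and read 204 and 182 in the 2 DPN controls, against a median of 177. Nor did Cela3b 1435611_x_at, which was highest in PB at 14 days (54.5). The DMN control of 14 days (43.7) and the DPN control of 20 h (43.5) followed, and the DPN control of 14 days was under the floor.

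Of the 4 probe sets too dim to be tested 1 stood apart in a DPN control. Clps 1438612_a_at read 31.9 in the DPN control of 20 h, just under the floor, while the next highest of the 52 arrays read 4.33. Cpa1 was highest in the same array, at 5.48, but ENU at 14 days was at 5.44. The other 2 stood apart in other arrays. Pnliprp1 was highest in PB at 28 days, at 32.3, with 11.1 on the next array. Cela3b 1415883_a_at was highest in the ENU control of 20 h, at 38.1, with 9.41 on the next array. Signals under the floor have no order, so the highest arrays were counted over the tested probe sets. Of the 8 pancreatic ones 6 were highest in one of the 2 DPN controls, which held for 5.8% of all 18349. Both arrays together formed the top 2 for 3 of the 8 and for 0.142% of all. These shares describe genes chosen with the arrays known and were not tested. The DPN control of 14 days was high for dim probe sets in general, and their median, over the 4277 untested ones, ranked 3 of 52. That of the DPN control of 20 h ranked 45 of 52. The part of this general level in the pancreatic signals was not tested.

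Averaging the 6 genes, each by its brightest tested probe set and as log2 signal minus its median over 52 arrays, gave 1 value per array. It ran from -0.36 to 0.92, an SD of 0.21 over 52 arrays. The DPN controls of 14 days (0.92) and 20 h (0.54) led, and the ENU control of 14 days (0.34) and the DMN control of 4 h (0.29) followed, so the 4 highest arrays were all vehicle controls. The lowest were ENU at 20 h (-0.36), DPN at 4 h (-0.33), DPN at 20 h (-0.30) and PB at 28 days (-0.28). Vehicle controls spanned 1.14 (20 arrays), genotoxic arrays 0.51 (24 arrays) and non-genotoxic arrays 0.42 (8 arrays). Treated and control arrays overlapped at 4 h, 20 h and 14 days. At 28 days the 6 genotoxic arrays (-0.13 to -0.021) overlapped the 5 controls (-0.11 to 0.037), and the 2 non-genotoxic arrays, EtOH at -0.14 and PB at -0.28, lay below all of them. PB at 28 days was the array with the lowest median before scaling, 17.9, and the part of the scaling in its mean was not tested. At 14 days the 6 genotoxic arrays lay between -0.0043 and 0.13, while the 5 vehicle controls ran from -0.22 to 0.92. The -0.22 was that of the DMN control, which had the highest median before scaling. Of the 32 treated arrays, 26 had a lower mean than their own control, which several of them share.

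**Figure D2:**
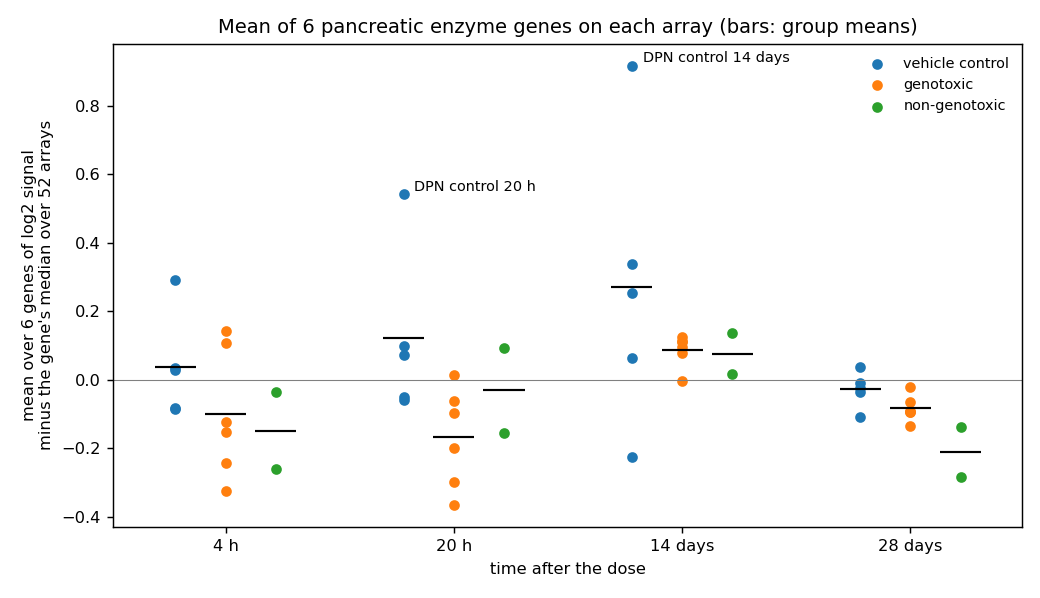
Mean over 6 genes of log2 signal minus the gene's 52-array median (vertical axis, log2 units) at each time after the dose (horizontal axis), 1 point per array, bars at group means. The DPN controls of 20 h (0.54) and 14 days (0.92) stand above all other arrays.

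The genes moved together only weakly over the whole set of arrays, and how weakly depended on the scaling. The median Pearson correlation over the 15 pairs of 6 genes was 0.22 across 52 arrays, 13 pairs were positive and none exceeded 0.5. It was 0.31 after quantile normalization, 0.40 with arrays scaled to their 75th percentile and 0.43 for the values as deposited, in which the arrays are not on a common level. The closest pair was Cela2a with Clps (0.49), and Ctrb1 with Rnase1 was the least alike (-0.07). Across the 20 vehicle controls alone the median was 0.27 and Cela2a with Clps reached 0.82, while across the 32 treated arrays the median was 0.08. Without the DPN controls of 14 days and 20 h the median over 50 arrays was 0.03, that of Cela2a with Clps fell to 0.12, and in the vehicle controls the median was 0.08. Within single times the median was -0.06 at 4 h, 0.28 at 20 h, 0.29 at 14 days and 0.09 at 28 days. At 20 h and at 14 days, the 2 times that hold these controls, leaving out the 2 arrays with the most extreme means brought it to -0.03 and 0.06. Clps followed the mean of the other 5 genes most closely (r = 0.59 across 52 arrays, 0.87 in vehicle controls) and Ctrb1 least (0.13). These correlations are descriptions, since the arrays share scaling, control sets and times and signals at the floor carry no order.

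**Figure D3:**
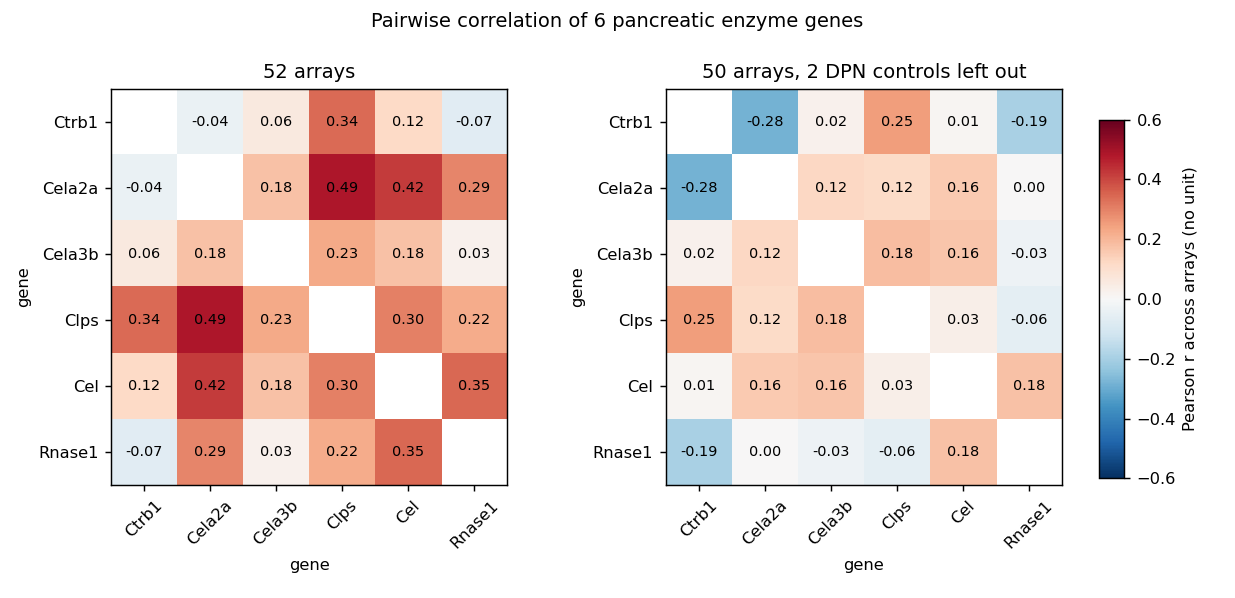
Pearson r across arrays (colour, no unit) for each pair of 6 genes, over 52 arrays (left) and over the 50 arrays without the DPN controls of 14 days and 20 h (right). The r of Cela2a with Clps is 0.49 on the left and 0.12 on the right.

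Other acinar genes followed these 6 little after median scaling. Of 38 further acinar genes listed, 23 had a probe set and 15 were tested. Their median r with the mean of the 6 genes was 0.11, with 11 of 15 positive, while the median over all 18349 tested probe sets was -0.09. With 75th percentile scaling the acinar median was 0.30, and for the values as deposited 0.55. The median over all probe sets was not computed under these 2 settings, so a general rise cannot be told from one of acinar genes. The closest was Reg2, a regenerating protein of the acinar cell (0.34), which was highest in the DPN control of 14 days at 119. Ptf1a, the acinar transcription factor, had 0.27. Cela1, another elastase gene, was above the floor on all arrays and had -0.04. Single probe sets nevertheless shared the 2 arrays. Of the 38 probe sets of these other acinar genes, dim ones included, 2 (5.26%) had both arrays as their top 2. This held for 0.203% of all 22626, and the difference was not tested. Prss2 1433459_x_at, an anionic trypsinogen, read 103 in the DPN control of 20 h and 73.6 in that of 14 days, against a median of 17.9 and 34.5 on the next array. Cpb1 (carboxypeptidase B), above the floor on 2 arrays only, read 62.7 and 33.9 on the same 2, with 26.6 on the next array. Prss2 1435507_x_at was highest in the DPN control of 20 h at 86.1, but its second array was DMBA at 20 h at 52.3. The brightest Prss2 probe set, 1433573_x_at, was highest in the ENU control of 20 h. Others were low in the DPN control of 14 days, where Pla2g1b 1437015_x_at read 9.51 and Gatm 34.3, against medians of 47.3 and 78.5. The sequences of trypsinogen and elastase paralogs are alike, and these probe sets may read more than 1 of them.

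Among the 12 genes most like the mean of the 6, only Prss2 (r = 0.65) was on the acinar list. Sall2, a zinc finger transcription factor (0.69), Prc1, a cytokinesis protein (0.69), and Rbm25, a splicing factor (0.68), were closer. Rbm25 read 98.1 in the DPN control of 14 days and 59.7 in the ENU control of 14 days. The 9 others were 1700097N02Rik, Pirb, Eed, Elf4, Tgfb2, Napb, BC016548, Pdlim1 and Prss2 itself, with r from 0.64 to 0.66. Of the 12, 9 were highest in the DPN control of 14 days and 9 were at the floor on more than 26 of the 52 arrays. Over all 22626 probe sets 4.42% were highest in that control. These include the 4277 untested ones, from which the 12 were not drawn and of which 6.73% were highest there. The 12 were picked by r with a mean that itself peaks there, so their count follows in part from the choice.

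Markers of neighbouring tissues were read on the same arrays. For the pancreatic islet, 12 of 18 markers were tested, and their median r with the mean of the 6 genes was 0.10. Ins2 (insulin) was above the floor on 15 arrays and highest in that same EtOH array of 20 h, and Gcg (glucagon) was above it on 1, the DPN control of 14 days, at 35.6. The median r was 0.07 for the duct list (5 of 9 tested), 0.08 for gut (11 of 18), 0.05 for fat (4 of 9), 0.29 for spleen and lymph node (10 of 12), 0.28 for kidney and adrenal (7 of 9) and -0.23 for hepatocytes (14 of 15). Single bright genes that liver expresses carry the summed signals of 2 lists, Cela1 (median 1258) that of the acinar list (median 2221) and Slc2a2, a glucose transporter of hepatocytes too (2307), that of the islet list (2857). Each tested gene was therefore weighted alike, as the mean of log2 signal minus its 52-array median. So weighted, the acinar list ranked 14 of 52 in the DPN control of 20 h and 22 in that of 14 days. The ranks were 23 and 2 for islet, 8 and 5 for duct, 21 and 2 for gut and 51 and 20 for fat. They were 2 and 3 for spleen and lymph node, 30 and 3 for kidney and adrenal and 12 and 37 for hepatocytes. The part of these markers in the pancreatic signals was not tested.

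Whether any chemical moved the genes was tested with limma over all 18349 probe sets, with the control set within each time as a block, so that the 4 times stand as repeats of a chemical. The test over all 8 chemicals together called 16 probe sets, 0.0872% of those tested, at an adjusted p under 0.05, and none of the 8 pancreatic ones. An unadjusted p under 0.05 was found for 2 of these 8 and for 1178 of all 18349. For ENU, DMN, DMBA, DBP, EtOH and PB the share called was 0%, and for AAT it was 0.00545%, with no pancreatic probe set among them. Among these 7 chemicals Ctrb1 with ENU had the only pancreatic p under 0.05 before adjustment, and it did not pass (adjusted p = 0.86). With ENU 1057 of all 18349 probe sets had such an unadjusted p.

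Ctrb1 was low in particular arrays rather than with a chemical at every time. At 4 h it read 26.5 in ENU, 36.2 in DPN, 63.1 in DMN and 32.3 in EtOH, while the 5 vehicle controls of that time read between 109 and 174. AAT, DMBA, DBP and PB at 4 h gave 125, 108, 159 and 146. At 20 h ENU (33.3) and DPN (30.8) were again low, against 126 to 171 in the controls. PB (92.5), DMN (112) and DMBA (121) lay below that range by less, and DBP (127), AAT (133) and EtOH (135) lay within it. By 14 days ENU, DMN and DPN read 137, 117 and 151, and the low arrays were DMBA at 49.1 and a vehicle control, that of DMN, at 39.4. At 28 days the ENU and DPN controls (57.7 and 59.8) and the treated arrays of PB and ENU (60.4 and 66.2) were lowest. The fitted difference of the genotoxic class from the controls was -1.18 ± 0.54 (SE, log2) at 4 h and -1.17 ± 0.37 at 20 h, and neither passed in limma over all probe sets (adjusted p = 0.53 and 0.96). Between saline controls of the same time the widest log2 gap in Ctrb1 was 0.30 at 4 h, 0.45 at 20 h, 2.44 at 14 days and 1.2 at 28 days. Log2 ratios to the own control of -2.15 in ENU, -2.04 in DPN, -2.12 in EtOH and -1.46 in DMN at 4 h, and of -2.04 in ENU, -2.39 in DPN and -0.56 in DMN at 20 h, were larger than the gap of their time. Rises beyond the gap were found as well, in DBP at 4 h (0.54) and in DPN at 28 days (1.37). The own control of DBP is the olive oil array, the lowest control of 4 h at 109, which is not among the saline controls that give the gap. DBP itself, at 159, lay within the range of the 5 controls. No array at 14 or 28 days fell below its own control by more than the gap of its time, which at 14 days rests on the low DMN control. That control had the highest median before scaling, 205 against a mean of 76.6 over the arrays. The part of the scaling in its low Ctrb1 signal was not tested.

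**Figure D4:**
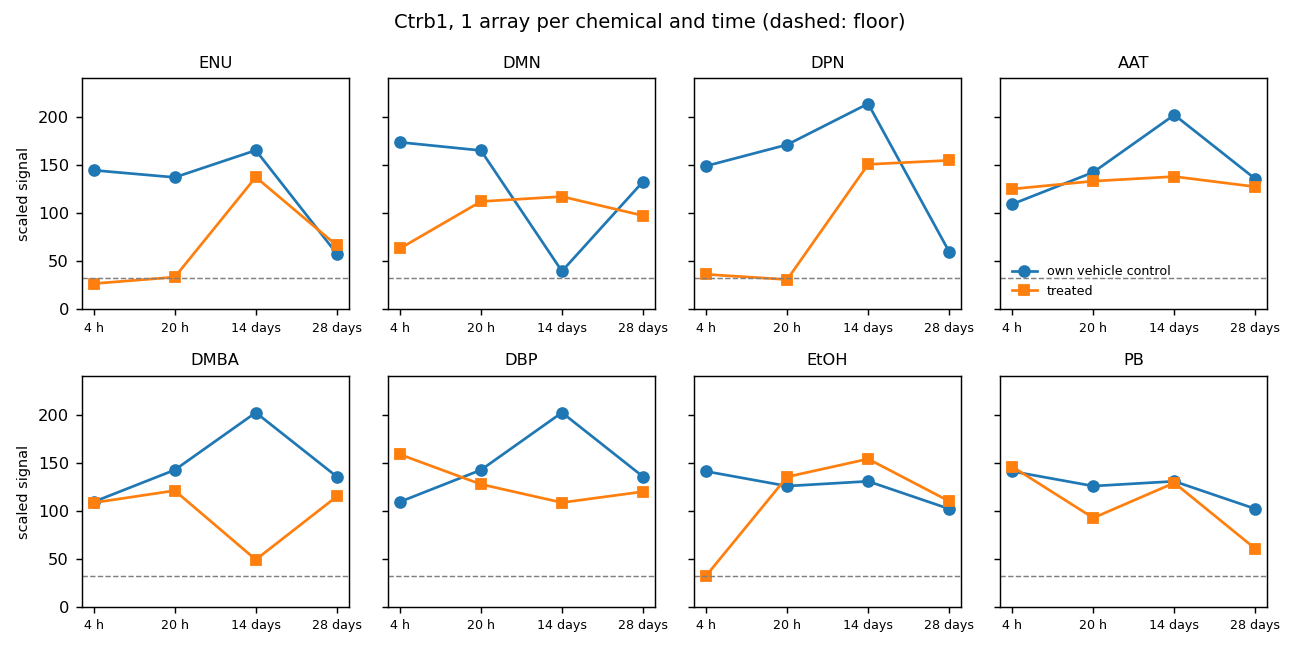
Scaled signal of Ctrb1 (vertical axis) by time after the dose in each chemical (squares) and its own vehicle control (circles), 1 array per point, dashed line at the floor of 32.5. ENU and DPN are near the floor at 4 h and 20 h, EtOH at 4 h only, and the DMN control is low at 14 days.

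DPN was the only chemical with a pancreatic probe set called. Of 18349 probe sets 76 were called, 0.414%, of which 19, 0.104% of all, were lower, and 2 of the 8 pancreatic probe sets were among them, Rnase1 and Cela3b 1437326_x_at. All 8 had a fitted difference below 0, with a median of -0.47, while 43.5% of all probe sets were below 0 and their median was 0.03. The 8 share their 4 control arrays and 3 of them are one gene's. The genes were chosen with these arrays known, and 6 of the 8 probe sets were highest in the DPN control of 20 h or 14 days. The signs, calls and p-values given for DPN therefore follow in part from that choice. Rnase1 read 106, 79.3, 95.9 and 61.8 in DPN at 4 h, 20 h, 14 days and 28 days, and 119, 132, 168 and 131 in its saline controls. All 4 DPN arrays were below all 4 controls, which held for 1 of the 8 probe sets and for 1.11% of those tested. The controls were higher by 1.11-fold at 4 h, 1.67-fold at 20 h, 1.76-fold at 14 days and 2.12-fold at 28 days. The fitted difference was -0.70 ± 0.15 (SE, log2), with an adjusted p of 0.0327 in limma. Without DPN and its control at 20 h, at 14 days or at 28 days the difference was -0.69, -0.66 and -0.57, of similar size, but did not pass (adjusted p = 0.16, 0.13 and 0.12). Without those of 4 h it was -0.88 and passed (adjusted p = 0.018 in limma). With time as a term in place of the block it was -0.42 (adjusted p = 0.076), and for the values as deposited -0.54 (adjusted p = 1). Leaving out DMBA, which shares no control with DPN, left the difference at -0.70 with an adjusted p of 0.0502. Over the 28 days genotoxic arrays Rnase1 in DPN stood apart, at 61.8 against 103 or more in the other 5.

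Cela3b 1437326_x_at was under the floor in DPN at every time. Its saline controls were under it at 4 h and 28 days as well, and above it at 20 h (108) and 14 days (90.8), so that the control was at least 3.32-fold higher at 20 h and at least 2.79-fold higher at 14 days. The fitted difference was -0.80 ± 0.18 (SE, log2; adjusted p = 0.0400 in limma), and it rested on these 2 controls. With no floor the difference was -0.99 but did not pass (adjusted p = 0.45). With time as a term in place of the block it was -0.21 (adjusted p = 0.59), and for the values as deposited -0.65 (adjusted p = 1). Without DPN and its control at 20 h it was -0.49 (adjusted p = 0.36), without those of 14 days -0.58 (adjusted p = 0.29), and without both times 0. Without those of 4 h or those of 28 days, all under the floor, it was -1.07 (adjusted p = 0.0100 and 0.0054 in limma). The other 2 tested probe sets of Cela3b differed less, by -0.15 ± 0.13 for 1415884_at and -0.11 ± 0.10 for 1435611_x_at, and did not pass (adjusted p = 0.68 and 0.72).

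Clps and Cela2a were also highest in the controls of 20 h and 14 days, and neither they nor Cel and Ctrb1 passed. Clps read under the floor, 34.0, 46.8 and 45.8 in DPN over the 4 times, and 37.0, 74.9, 94.4 and 35.1 in the controls (-0.49 ± 0.18, adjusted p = 0.26). Without the 28 days arrays the difference was -0.78 (adjusted p = 0.0475), and without both 20 h and 14 days it was 0.10 (adjusted p = 1). Cela2a read 48.6, 52.5, 47.6 and under the floor in DPN, and under the floor, 79.8, 129 and 40.2 in the controls (-0.44 ± 0.25, adjusted p = 0.47). Cel did not differ at 20 h, with 95.0 in DPN and 94.6 in its control, and at 14 days DPN gave 75.3 and its control 155 (-0.33 ± 0.17 over the 4 times, adjusted p = 0.42). Ctrb1 (-0.89 ± 0.50, adjusted p = 0.48) was lower in DPN at 4 h and 20 h and higher at 28 days, 155 against 59.8.

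**Figure D5:**
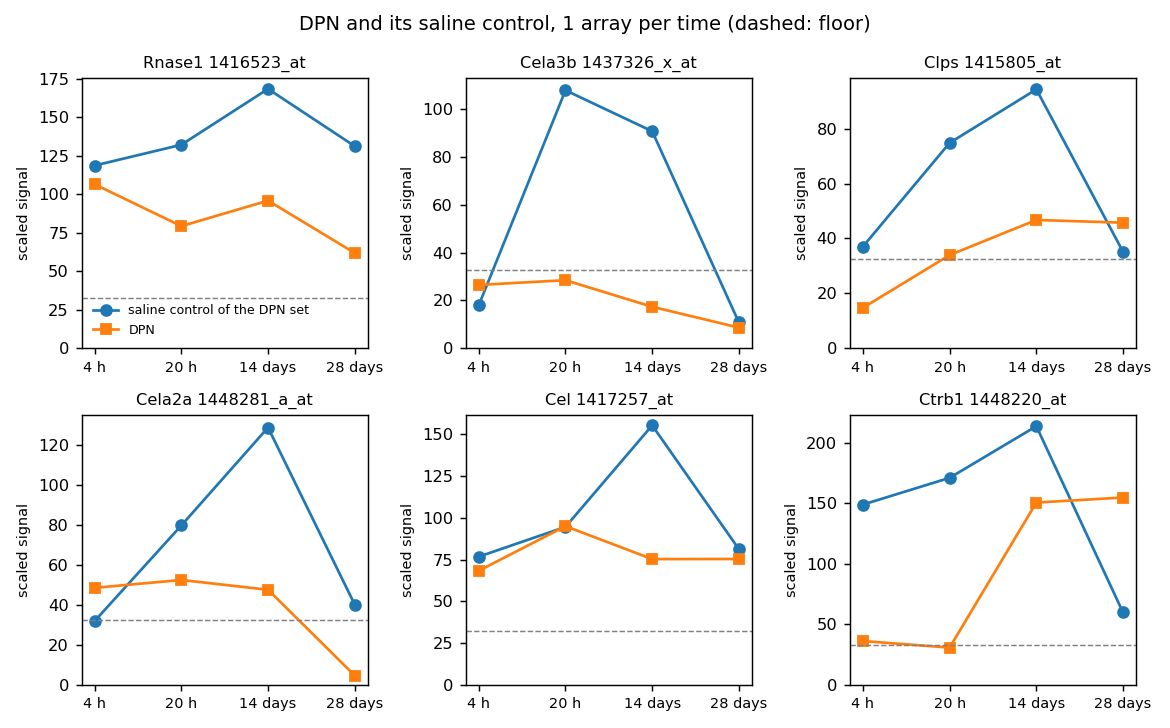
Scaled signal (vertical axis) of 6 probe sets by time after the dose in DPN (squares) and its saline controls (circles), 1 array per point, dashed line at the floor of 32.5. In Rnase1 the control is higher at all 4 times, and in Cela3b 1437326_x_at and Clps the controls of 20 h and 14 days stand highest.

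The classes were compared at each time with 1 fit per time. Genotoxic chemicals against vehicle controls gave 0% of probe sets called at each of the 4 times, and the non-genotoxic class gave 0.136% at 4 h, 0.153% at 20 h, 0.12% at 14 days and 1.02% at 28 days. No pancreatic probe set was among them. Before adjustment p was under 0.05 for Ctrb1 and Cela2a in the genotoxic class at 20 h, Clps in that class at 14 days and Cela3b 1415884_at in the non-genotoxic class at 28 days. The lowest adjusted p of all 64 pancreatic tests by class and time was 0.30. Cela2a in the genotoxic class at 20 h had a difference of -0.34 ± 0.11 (SE, log2; limma's adjusted p = 0.96). The genotoxic class against the non-genotoxic class called 0.104%, 0.114%, 0.0599% and 0.518% of probe sets at the 4 times, and none of the 8 pancreatic ones. The lowest adjusted p among these was 1 at 4 h, 0.88 at 20 h, 0.85 at 14 days and 0.54 at 28 days.

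In the vehicle controls alone, time moved 13.2% of all probe sets (2428 of 18349) and none of the 8 pancreatic ones. Clps came nearest (adjusted p = 0.11), and its controls of 14 days lay 0.58 ± 0.20 (SE, log2) above those of 4 h. Olive oil against saline controls called 0% of probe sets, 2159 had an unadjusted p under 0.05, and none of the 8 pancreatic ones did. The differences between the vehicles ran from -0.27 for Cela2a to 0.25 for Ctrb1, each smaller than its SE of 0.31 and 0.32.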

How the data were processed

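Liver RNA of 52 pools of 5 male mice was hybridised to 1-colour oligonucleotide arrays. The authors deposited 1 linear intensity per probe set and array. How these intensity values were background-corrected and scaled, and with what software, was not given in the sources used here, and no read depth applies, so the number of arrays limits the precision. All columns of samples were used. Probe sets were named from the platform annotation, in which 20380 had 1 symbol, 691 had several and 1555 had none, and the 64 control probe sets were left out of 22690. Probe sets with several symbols were given no gene. The study's text names the Mu74A V2 array, while 21084 of the 22690 deposited IDs are in the annotation used here, so gene names rest on that annotation.

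The values of an array were divided by the median of that array and then brought back to the mean of all medians, 76.6. Values under 32.5, the 30th percentile, were set to it, and log2 was taken. Probe sets above this floor on at least 4 arrays entered linear models (lmFit and eBayes with a trend, from limma 3.58.1 under R 4.3.3), and two-sided p-values were adjusted by Benjamini-Hochberg over all 18349 of them, with a threshold of 0.05. Chemicals were tested in 1 fit of 52 arrays with the control set within time as a block (20 blocks, 24 residual degrees of freedom), classes in 1 fit per time (6 residual degrees of freedom), and time and vehicle in the 20 controls. Each array is a pool and each chemical and time has 1 array, so p-values measure the spread between arrays. The scripts were tested on simulated data.

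The genes and the lists of markers (other acinar, islet, duct, gut, fat, spleen and lymph node, kidney and adrenal, hepatocyte) were chosen with earlier results of these data known. The text names all 9 genes, the 12 genes most like the mean of the 6 measured ones, at most 4 genes per list by correlation or by lying at the floor, and the 4 highest and 4 lowest arrays. Cela1, the further Prss2 probe sets, Cpb1, Pla2g1b and Gatm were named after their values were seen. Alternatives were other scalings, floors, filters and fits, and leaving out a chemical, a control set or single times. The plots came from Python 3.11.15 and its matplotlib 3.10.9.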

Additional observations from a re-analysis of the deposited data

Results flagged for a closer look

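Of 58 groups of 5 or 6 arrays of 1 class and time examined, 17 held an array far from the others, by a gap to the nearest array that took more of the group's range, on the floored log2 scale, than Dixon's 95% critical value allows. The critical value would flag about 1 in 20 groups of normally distributed values. Several of these groups hold values at the floor, and a ratio of 1 arises wherever all other arrays lie at it. The probe sets were also chosen with the arrays known, and the share over all probe sets was not computed. The count of 17 is thus a description and cannot be set against 1 in 20.

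Among vehicle controls, the DPN control of 14 days was set apart for Cela2a (the gap was 0.763 of the range, and the signal was 129) and for Cela3b 1437326_x_at (0.824, 90.8 against 39.0 on the nearest array). The DPN control of 20 h was set apart for the same Cela3b probe set (0.820, 108 against 40.4) and for 1435611_x_at (ratio 1, signal 43.5). The DMN control of 4 h was highest for Cela2a (0.866, 79.3 against 36.7) and for Clps 1415805_at (0.715, 51.4 against 37.0). The ENU control of 4 h was the lowest for Cela3b 1415884_at (0.739, against 179 on the nearest array) and the highest for 1435611_x_at (ratio 1, signal 33.5).

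Among genotoxic arrays, DPN at 28 days was lowest for Rnase1 (0.816, 61.8 against 103), DMBA at 14 days for Ctrb1 (0.707, 49.1 against 108) and DMBA at 28 days for Cela3b 1415884_at (0.692, 149 against 167). DMN at 20 h was highest for Clps (0.703, 45.2 against 35.9) and DPN at 20 h for Cela2a (0.690, 52.5 against 37.7). For Cela3b 1437326_x_at the highest were AAT at 4 h (ratio 1, signal 43.7), DMN at 14 days (ratio 1, signal 33.8) and DMBA at 28 days (0.882, 40.1 against 33.3), and for 1435611_x_at AAT at 14 days (ratio 1, signal 33.8).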

How the results depend on the processing

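Of 93 alternative counts of called pancreatic probe sets 75 were unchanged, and of 59 alternatives of described values 47. The tests over all chemicals and of the vehicle called 0 under every alternative run. The count over single chemicals, 2 in the text, was 0 for the values as deposited and with time as a term in place of the block, and 1 with a floor at the 15th percentile, with no floor, with no filter and with probe sets above the floor on at least 26 arrays. Leaving out 1 chemical at a time gave 0 to 2. Leaving out DPN and its control gave 0 at 20 h, 0 at 14 days and 0 at both times, but 2 at 4 h and 2 at 28 days. These alternatives were chosen after the data were seen. The count by class and time was 1 for the values as deposited, Cela3b 1435611_x_at in the non-genotoxic class at 4 h (-0.46, adjusted p = 0.0026 in limma). That of time in the controls was 0 to 1 when control sets were left out, the 1 being Rnase1 without the shared saline set (adjusted p = 0.026). The median correlation of pairs over 52 arrays was 0.43 as deposited, 0.40 with 75th percentile scaling, 0.034 without the 2 farthest arrays and -0.064 within 4 h, and over treated arrays 0.34 as deposited. That of other acinar genes was 0.55 as deposited, 0.30 with 75th percentile scaling and -0.10 within 14 days. The range of the mean of the 6 genes, 1.28 in the text, was 2.55 as deposited, 1.53 with 75th percentile scaling, 0.70 without the 2 farthest arrays and 0.70 without the DPN sets of 20 h and 14 days. The causes were not tested, beyond the fewer arrays of the last settings. By replicate number, no paired analysis was possible because the labels number no replicates. The fit of chemicals already pairs each treated array with its own control through the block, and with time in its place the count was the 0 given above.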

Other observations

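One probe set annotated to both Cela3a and Cela3b, 1435012_x_at, was given no gene and entered no count above. It was above the floor on 2 arrays only, the DPN control of 14 days at 54.9 and the DPN control of 20 h at 52.8. The next array, DMBA at 28 days, read 14.4, and the median over 52 arrays was 4.07.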
